A study of Homo sapiens with 6 samples.

Results

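Interferon receptors and interferon-stimulated genes were followed as a set of 53 listed genes, chosen by symbol, across 6 RNA sequencing libraries of the HepG2 liver cancer line. The table of 20026 genes held a row for 52 of them, and IRF7 was not analysed here. The 3 groups, with 2 libraries each, were a scramble control, written Scr (labelled WT, given the PX458 vector without a targeting sequence), and the knockouts miR-23a KO and miR-27a KO, both edited with Cas9 and a pair of guides flanking the named miRNA. Knockout cells were grown from sorted single cells, so each group stands for selected colonies, and the labels do not say whether the 2 libraries of a group came from separate colonies. The labels record no added interferon or virus. The cell type label reads triple-negative, a term of breast cancer, while the cell line label reads HepG2.

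Interferons are secreted antiviral proteins that signal through paired receptor chains: IFNAR1 with IFNAR2 for type I, IFNGR1 with IFNGR2 for type II, and IFNLR1 with IL10RB for type III, or lambda, interferons. The kinases JAK1 and TYK2 bind the type I and type III receptors and phosphorylate STAT proteins, and STAT2 and IRF9 act together at the interferon-stimulated response element in the promoters of antiviral genes. IFNLR1 is restricted largely to epithelial cells and hepatocytes, which makes lambda interferon a local antiviral signal in liver.

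The edited miRNAs are given first because their seed, the bases that pair with target transcripts, was searched in the members. The sequences are RefSeq entries on GRCh38.p14, written 5′ to 3′ with seed bases 2 to 8 in capitals.

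hsa-miR-23a-3p (chr19:13836595-13836615, minus strand): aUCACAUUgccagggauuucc

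hsa-miR-27a-3p (chr19:13836447-13836467, minus strand): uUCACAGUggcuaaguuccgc

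The hepatocyte identity of the libraries was checked with 12 marker genes, all of which had a row. Their summed level was 35954 and 41578 CPM for Scr, 39030 and 36524 CPM for miR-23a KO, and 31316 and 31217 CPM for miR-27a KO. ALB had the highest mean of them in Scr, though SERPINA1 was above it in Scr replicate 1. The sum hides unlike changes of single markers in miR-27a KO by the edgeR test given below: ALB fell 6.04-fold (adjusted p = 0.00537), AFP 17.3-fold (adjusted p = 0.00262) and FGB 4.13-fold (adjusted p = 0.0212), and TF rose 2.37-fold (adjusted p = 0.0213). None of the 12 was called in miR-23a KO, where 0% of all 13787 genes tested were called in either direction. FGB and FGA lay below both Scr libraries there (log2 fold change -1.38 and -1.09), and the other markers overlapped Scr. The part of the marker changes in the results for the members was not tested. CPM are deposited gene counts per 1000000 counts of the library, scaled by the trimmed mean of M values (TMM).

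The level of the members per length spanned several orders of magnitude in Scr. Expressed as CPM per kb of transcript, the highest was IFITM3, a membrane protein that blocks viral fusion, at 335, followed by BST2, which tethers budding virions, at 149 and B2M, the light chain of class I HLA, at 135. These 3 genes held between 34.6% and 44.4% of all member counts in each library. The receptor subunits were ordered IFNGR2 (40.5), IFNGR1 (31.2), IL10RB (13.4), IFNAR2 (9.46), IFNAR1 (3) and IFNLR1 (1.75) CPM per kb, so the chain specific to lambda interferon had the lowest level of the 6 in Scr.

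**Figure D1:**
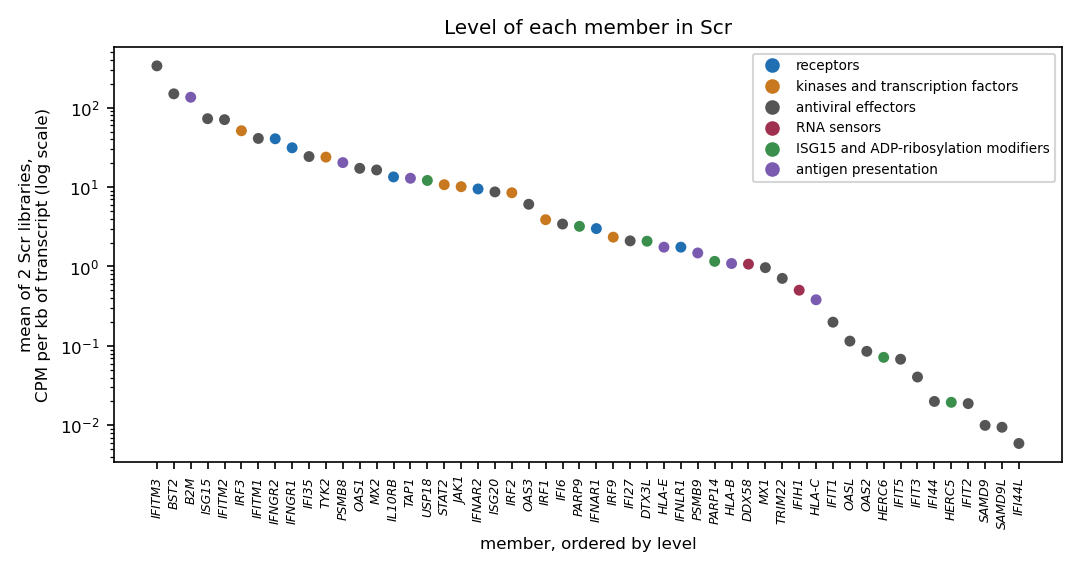
Mean level of each of 52 members in the 2 Scr libraries, in CPM per kb of transcript on a log axis, ordered from high to low and coloured by role. IFITM3 is at 335 CPM per kb, and several antiviral effectors lie below 0.1.

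Many classical interferon-induced genes were close to absent. A filter on low counts left 39 of the 53 members for the test of each knockout against Scr. The 13 members with a row that did not pass it were IFIT1, IFIT2, IFIT3, IFIT5, OAS2, OASL, IFI44, IFI44L, SAMD9, SAMD9L, HERC5, HERC6 and HLA-C, with between 0 and 29 counts in any library. IFIT1, an RNA-binding effector often used as a readout of the response, had 2 and 9 (Scr), 3 and 6 (miR-23a KO) and 3 and 4 (miR-27a KO) counts. IFI44L had 1 and 0 (Scr), 1 and 1 (miR-23a KO) and 0 and 0 (miR-27a KO) counts.

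Of the 10 interferon ligand genes listed, only IFNG had a row, with between 0 and 2 counts in each library, and the other ligands were not analysed here.

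In miR-27a KO against Scr, 2 members rose, IFNLR1 and MX1, and 2 fell, HLA-E and OAS1. The call was an adjusted p under 0.05 (edgeR quasi-likelihood test, Benjamini-Hochberg over all 13821 genes tested) with a change over 1.5-fold, and every call below is from this main fit of all libraries of a pair of groups unless another fit is named. The same call was made for 3.52% of all genes tested in the upward and 6.74% in the downward direction, so the number of members called was near that of genes in general. The median log2 fold change was -0.04 over the 39 tested members and 0.01 over all genes tested. At the stricter adjusted p under 0.001 with 1.5-fold 0 members were called by edgeR, beside 0.0145% of all genes in each direction. The numbers differed when 1 library was left out: 4 members rose and 2 fell without Scr replicate 1 (7.46% and 8.93% of all genes tested in that fit), 6 rose and 10 fell of 41 tested without Scr replicate 2 (13.4% and 12.7% of all genes), and 1 rose and 0 fell without miR-27a KO replicate 1 (0.769% and 2.19% of all genes) or miR-27a KO replicate 2 (0.574% and 1.72%), where the lone library of a group was assumed to vary as the other group did. IFNGR2 and IFIH1 joined those that rose without Scr replicate 1. DTX3L, IFIH1, OAS3 and PSMB9 joined them without Scr replicate 2, where BST2, HLA-E, IFI27, IFITM1, IFITM2, IFITM3, IFNAR2, ISG15, ISG20 and TYK2 were those that fell.

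In miR-23a KO against Scr, 0 members rose and 0 fell by edgeR, beside 0% of all 13787 genes in each direction. At an unadjusted p under 0.05 the numbers were 0 higher and 1 lower (IFNLR1), against 0.856% and 1.55% of all genes. DESeq2 called 0 higher and 1 lower, again IFNLR1 (0.029% and 0.428% of all genes), and limma called 0 in both directions (0% of all genes each). For 0 tested members was miR-23a KO above Scr without overlap, and for 9 it was below, against 8.87% and 14.9% of all genes. Leaving out miR-23a KO replicate 1 gave 0 higher and 1 lower (2.23% and 1.72% of all genes), and leaving out miR-23a KO replicate 2 gave 4 higher (IFI35, IRF3, ISG15 and TYK2) and 1 lower (12% and 6.57% of all genes), with IFNLR1 the lower member in both cases.

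In miR-23a KO against miR-27a KO, edgeR called 0 members in either direction, beside 0% of 13841 genes each. At an unadjusted p under 0.05 the direct comparison had 0 members higher and 4 lower (IFNLR1, MX1, IFNGR2 and IRF9), against 4.66% and 4.07% of all genes, while DESeq2 called 0 higher and 2 lower (IFNLR1 and MX1; 1.87% and 1.58% of all genes) and limma 0 higher and 1 lower (IFNLR1; 0.065% and 0.159% of all genes). Without overlap, miR-23a KO was above miR-27a KO for 5 of 40 members tested there and below it for 11, against 18.7% and 20.8% of all genes. The calls were 3 higher (IFI27, IFIT5 and PARP14) and 10 lower of 41 tested without miR-23a KO replicate 1 (19.2% and 14.8% of all genes), 10 higher and 11 lower of 40 tested without miR-23a KO replicate 2 (25.2% and 26.2% of all genes), and 0 higher and 1 lower (IFNLR1) without miR-27a KO replicate 1 (0.187% and 0.339% of all genes) or miR-27a KO replicate 2 (0.173% and 0.325%).

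The 2 miR-23a KO libraries stood apart from each other, which bears on every comparison that used them. Of 12289 genes with a mean of at least 20 counts there, 45.1% differed more than 2-fold between the miR-23a KO libraries, against 4.35% between the Scr and 0.578% between the miR-27a KO libraries. Among 37 members with that count, 13 differed more than 2-fold in miR-23a KO, 2 in Scr and 0 in miR-27a KO. The difference followed the GC content of the transcript. In the fifth of genes with the lowest GC content the median log2 ratio of replicate 1 over replicate 2 was -1.07, and in the fifth with the highest it was 1.19. PARP14, at 43.9% GC, had a log2 ratio of -2.21, JAK1, at 46.2%, one of -1.58, and ISG15, at 64.7%, one of 1.81. Single members departed from the trend: B2M, at 39.4% GC, had a log2 ratio of 0.36, and IFI27, at 58.2%, one of -1.56. The part of GC content in the comparisons with miR-23a KO was measured only through the corrected fits given with the alternatives.

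**Figure D2:**
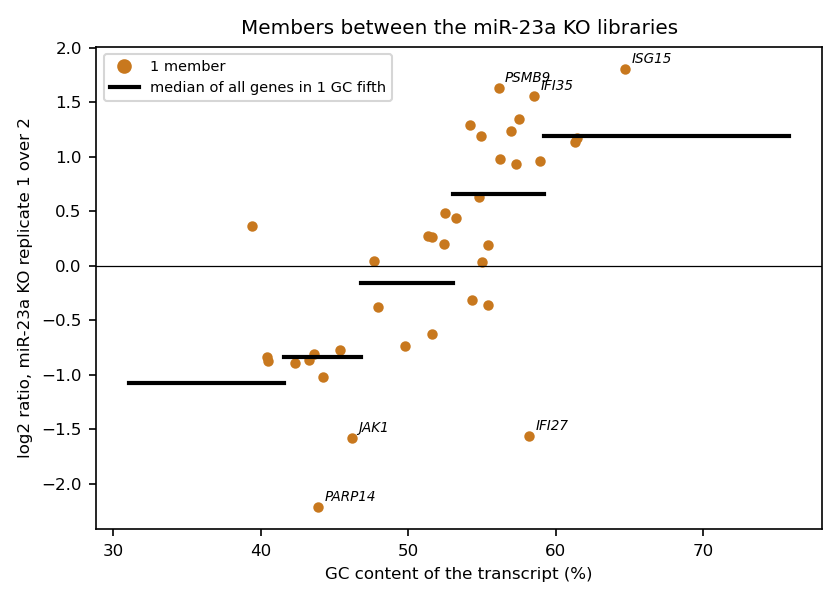
Log2 ratio of miR-23a KO replicate 1 over replicate 2 (TMM-scaled CPM plus 0.5) against the GC content of the transcript in percent, with 1 point for each of 37 members. Black lines are medians of all genes in 5 GC classes, running from -1.07 to 1.19.

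IFNLR1, the chain that gives lambda interferon its receptor, had the largest fitted change among the tested members in each knockout. Its level was 8.2 and 7.7 CPM in the Scr libraries, 0.913 and 0.753 CPM with miR-23a KO, and 29.3 and 33.7 CPM with miR-27a KO. Both miR-27a KO libraries lay above and both miR-23a KO libraries below both Scr libraries, with no overlap between any 2 groups. The log2 fold change in miR-27a KO was 1.98 (standard error, SE, 0.16), or 3.95-fold, with adjusted p = 0.00551 by edgeR. It was called in 11 of 12 alternative fits, the exception being 1 fit of all 6 libraries (adjusted p = 0.0805). In bulk RNA, fewer cells that express a gene and less RNA per cell cannot be told apart.

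In miR-23a KO the log2 fold change of IFNLR1 against Scr was -3.18 (SE 0.69) with adjusted p = 0.474, so it was not called. The deposited counts behind it were 118 and 114 (Scr), 12 and 14 (miR-23a KO) and 484 and 560 (miR-27a KO). The value against Scr was -3.34 without miR-23a KO replicate 1, -3.11 without miR-23a KO replicate 2, -3.17 without Scr replicate 1 and -3.23 without Scr replicate 2. IFNLR1 was called lower in 4 of 12 alternatives, among them both fits without a miR-23a KO library and neither fit without a Scr library. Across all 12 the adjusted p ran from 0.0052 to 1. The direct comparison of miR-23a KO with miR-27a KO gave a log2 fold change of -5.23 (SE 0.42) with adjusted p = 0.0802 by edgeR, and between 3.52e-18 and 0.0802 over 12 alternatives. The smallest came from GC content and length corrected with replicate block, and the labels name no pairing of replicates. It passed the threshold in 10 of those 12, among them each of the 4 fits without 1 library. In those 4 the lone library was assumed to vary as the other group did. The spread between the miR-23a KO libraries therefore did not enter where 1 of them was left out. The log2 fold change was -5.38 without miR-23a KO replicate 1 and -5.09 without miR-23a KO replicate 2. It was -5.34 without miR-27a KO replicate 1 and -5.14 without miR-27a KO replicate 2. Only IFNLR1 among the 39 members lay above both Scr libraries in miR-27a KO and below both in miR-23a KO by over 1.5-fold each, a pattern found in 1.4% of 13557 genes tested in both comparisons, which share the Scr libraries. The reverse pattern was found in 0 members and 0.553% of genes. With no limit on the fold, 4 members and 4.37% of genes had the first pattern, and 0 members and 1.42% of genes the reverse.

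The partner chain IL10RB, which IFNLR1 shares with the receptors for interleukin-10 and interleukin-22, varied far less. Its level was 27.7 and 24.9 CPM in the Scr libraries, 20.3 and 19.6 CPM with miR-23a KO, and 32.5 and 28.4 CPM with miR-27a KO. The 3 groups did not overlap, miR-27a KO being highest and miR-23a KO lowest, but the log2 fold change in miR-27a KO was 0.21 (SE 0.14) with adjusted p = 0.354.

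The type I receptor chains lay on different sides of Scr in miR-27a KO without passing the test. IFNAR1 was at 15.3 and 21.5 CPM in the Scr libraries, 16.7 and 31.4 CPM with miR-23a KO, and 23.3 and 22.5 CPM with miR-27a KO. Both miR-27a KO libraries were above Scr (log2 fold change 0.31, SE 0.20, adjusted p = 0.333), and the miR-23a KO libraries overlapped Scr. IFNAR2, the chain that binds type I interferon with high affinity, was at 30.9 and 24 CPM in the Scr libraries, 18.9 and 24.8 CPM with miR-23a KO, and 17 and 19.5 CPM with miR-27a KO. Both libraries of miR-27a KO were below both Scr libraries, with a log2 fold change of -0.59 (SE 0.18) and adjusted p = 0.0904, and its miR-23a KO libraries overlapped Scr.

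The type II receptor chains had the highest CPM per kb of the 6 in Scr. The ligand-binding chain IFNGR1 was at 68.5 and 64.8 CPM in the Scr libraries, 52.2 and 95.8 CPM with miR-23a KO, and 67.7 and 63.9 CPM with miR-27a KO. Its 3 groups overlapped. The signalling chain IFNGR2 was at 108 and 71.9 CPM in the Scr libraries, 59.6 and 58.3 CPM with miR-23a KO, and 118 and 112 CPM with miR-27a KO. Its groups did not overlap, and the log2 fold change was 0.35 (SE 0.20) in miR-27a KO with adjusted p = 0.275 and -0.54 (SE 0.45) in miR-23a KO with adjusted p = 1.

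IFNAR2, IL10RB, IFNAR1 and IFNGR2 stand next to each other on the plus strand within 208 kb of chromosome 21 in GENCODE 29. Of these neighbours, 3 had both miR-27a KO libraries above Scr and IFNAR2 had both below, against 32.4% and 31.9% of all genes tested. None of the 4 was called in either knockout by the main edgeR fit. Other edgeR fits called IFNGR2 higher in miR-27a KO without Scr replicate 1 (log2 fold change 0.68) and with GC content and length corrected with replicate block (0.60), but without Scr replicate 2 it was 0.09 (adjusted p = 0.194). IFNAR2 was called lower without Scr replicate 2 (-0.76) and was -0.39 and not called without Scr replicate 1.

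**Figure D3:**
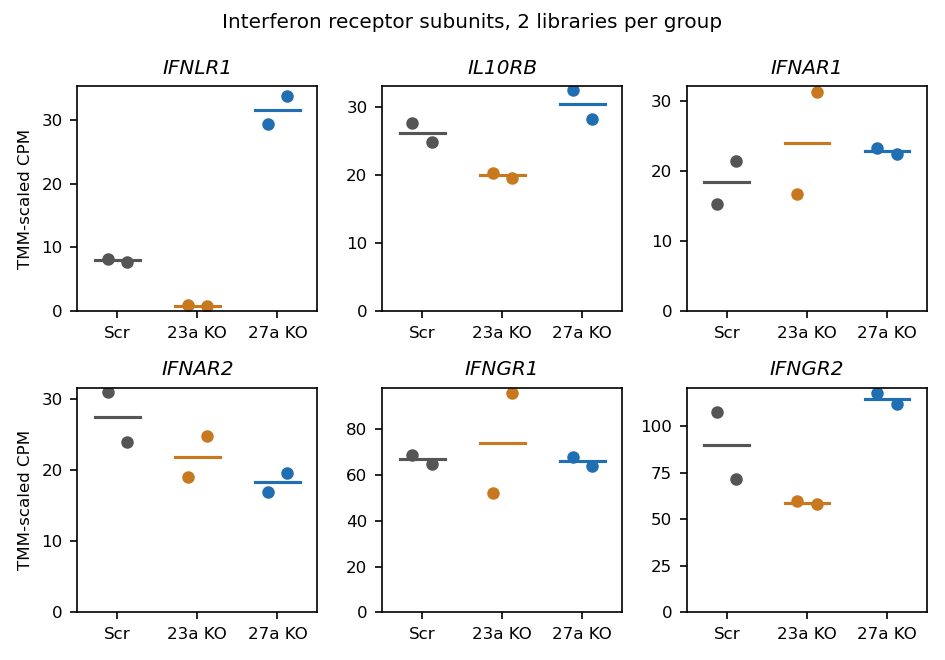
TMM-scaled CPM of the 6 receptor subunits on linear axes from 0, with 1 point per library and a line at the mean of 2. IFNLR1 is at 29.3 and 33.7 CPM in miR-27a KO and below 1 CPM in miR-23a KO.

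Of the kinases and transcription factors, 7 had a row and all 7 were tested, with 0 called in any comparison by the main edgeR fit at the 1.5-fold limit. Fits without 1 library called TYK2 lower in miR-27a KO than Scr, TYK2 and IRF3 higher in miR-23a KO than Scr and than miR-27a KO, and JAK1, IRF1, IRF2 and IRF9 lower in miR-23a KO than miR-27a KO. JAK1, the kinase shared by all interferon receptors, was at 49.8 and 52.2 CPM in the Scr libraries, 31.3 and 94.5 CPM with miR-23a KO, and 69.3 and 69.7 CPM with miR-27a KO. Both miR-27a KO libraries exceeded Scr, while the miR-23a KO libraries were lowest and highest of the 6. Its log2 fold change in miR-27a KO was 0.44 (SE 0.09) with adjusted p = 0.0352, past the p threshold but under 1.5-fold. TYK2, the kinase of the type I and lambda receptors, was at 110.0 and 96.5 CPM in the Scr libraries, 213 and 96.6 CPM with miR-23a KO, and 73.5 and 72.1 CPM with miR-27a KO. In miR-27a KO both libraries were the lowest, with a log2 fold change of -0.51 (SE 0.10) and adjusted p = 0.0335, also under 1.5-fold. At an adjusted p under 0.05 with any fold, 3 members were higher and 4 lower in miR-27a KO, against 4.88% and 9.12% of all genes. With correction for GC content and length the TYK2 value became -0.22 (adjusted p = 0.126) and that of JAK1 0.36 (adjusted p = 0.0449). Without miR-27a KO replicate 1 the values were 0.45 for JAK1 (adjusted p = 0.39) and -0.51 for TYK2 (adjusted p = 0.29), and without replicate 2 they were 0.45 (adjusted p = 0.401) and -0.48 (adjusted p = 0.349).

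STAT2 and IRF9 were detected in every library. STAT2 was at 33.7 and 36.1 CPM in the Scr libraries, 19.3 and 30.1 CPM with miR-23a KO, and 26.8 and 24.2 CPM with miR-27a KO. Both knockouts lay below Scr, with a log2 fold change of -0.46 (SE 0.12) in miR-27a KO (adjusted p = 0.0686) and -0.42 (SE 0.49) in miR-23a KO (adjusted p = 1). IRF9, the DNA-binding partner, was at 5.28 and 3.31 CPM in the Scr libraries, 1.06 and 1.51 CPM with miR-23a KO, and 3.82 and 3.73 CPM with miR-27a KO. The miR-23a KO libraries were below all others and miR-27a KO overlapped Scr. The log2 fold change of IRF9 in miR-23a KO was -1.65 (SE 0.72) with adjusted p = 1.

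Among the remaining interferon regulatory factors 0 were called by the main fit. IRF1, an activator induced by type II interferon, was at 13.8 and 14 CPM in the Scr libraries, 11.9 and 8.61 CPM with miR-23a KO, and 15.4 and 13.5 CPM with miR-27a KO. Libraries of miR-27a KO overlapped Scr, and miR-23a KO lay below it without passing the test (adjusted p = 1). IRF2, its antagonist, was at 16.3 and 22.7 CPM in the Scr libraries, 11.9 and 20.7 CPM with miR-23a KO, and 22.2 and 24.1 CPM with miR-27a KO. Values in miR-27a KO overlapped Scr. IRF3, which switches on interferon genes after RNA sensing, was at 89.9 and 88.1 CPM in the Scr libraries, 152 and 67.3 CPM with miR-23a KO, and 66.8 and 72.3 CPM with miR-27a KO. With miR-27a KO both libraries were below Scr (log2 fold change -0.36, SE 0.09, adjusted p = 0.0552) and its miR-23a KO libraries overlapped Scr. With GC content and length corrected the IRF3 value in miR-27a KO became -0.05 (adjusted p = 0.772).

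**Figure D4:**
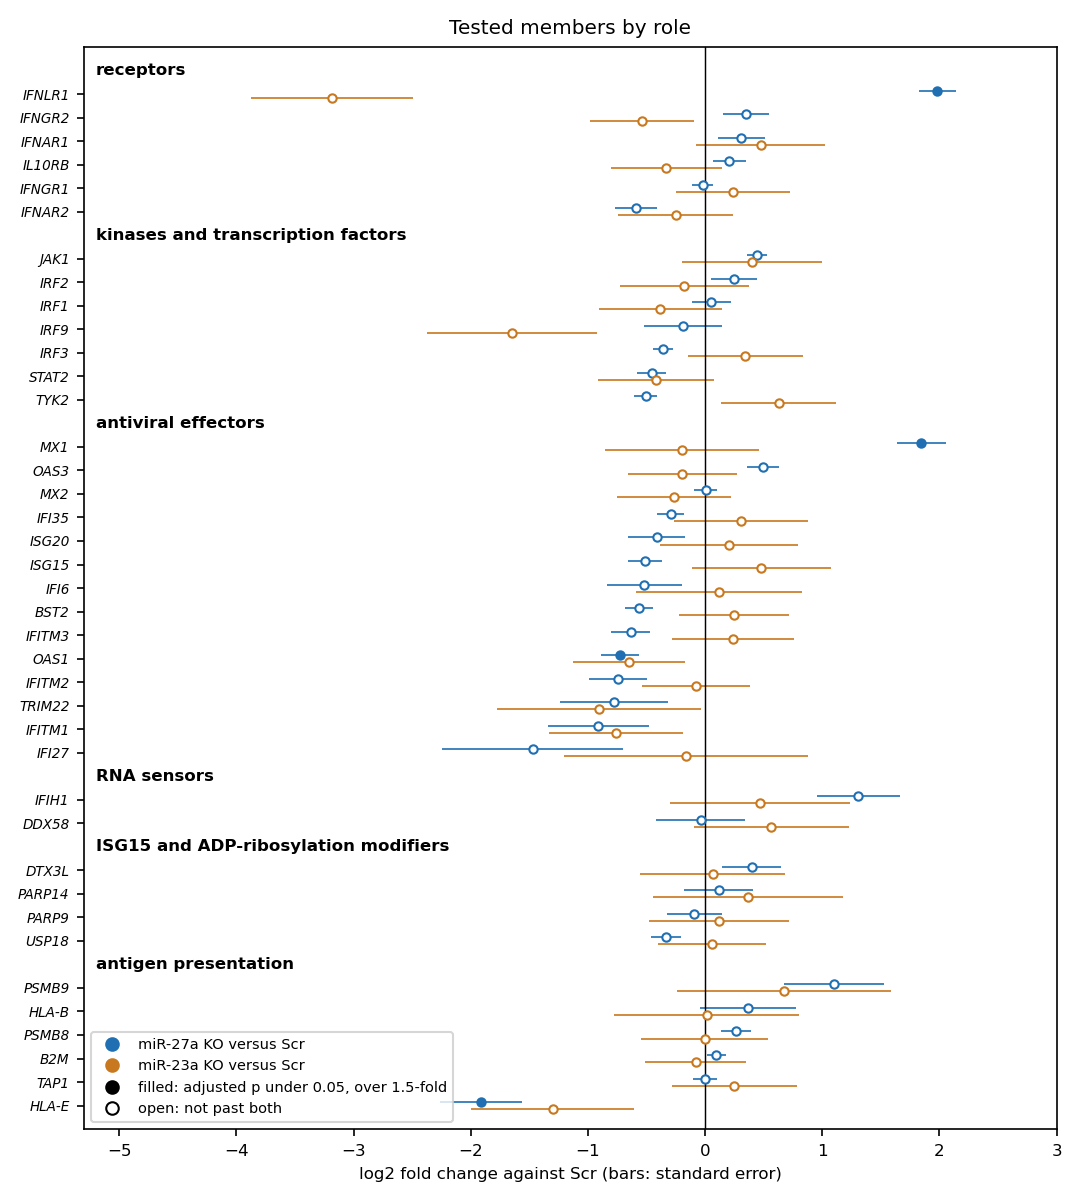
Log2 fold change against Scr of the 39 tested members, by role, in miR-27a KO and miR-23a KO, with bars for the standard error. Filled points, IFNLR1, MX1, OAS1 and HLA-E in miR-27a KO, are past an adjusted p of 0.05 and 1.5-fold, and the 2 comparisons share the Scr libraries.

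Promoter windows were searched for the interferon-stimulated response element and for the element that STAT dimers bind. RefSeq windows on GRCh38.p14, reaching from 250 bases before to 50 after a start, were found for 41 of the members, with none for IFNAR2, IRF2, IRF3, IFIT2, IFITM2, MX2, OAS2, OASL, TRIM22, USP18 and HLA-E. The core of the interferon-stimulated response element was searched as GAAANNGAAA on both strands, overlapping matches included. It occurred in 27 of 53 member windows (50.9%) and in 3.57% of all 35116 windows. By role, 15 of 18 antiviral effectors, 4 of 5 modifiers, 3 of 6 antigen presentation members and 1 of 2 RNA sensors had a window with the core. None of 5 receptors and none of 5 kinases and transcription factors did. The STAT dimer element, searched as TTCNNNGAA, was in 14 member windows (26.4%) and in 7.66% of all windows.

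The following stretches show the core on either strand, in capitals, in 3 abundant members, in MX1, which rose, and in IFIT1, which was near 0.

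MX1 (chr21:41420559-41420588, plus strand): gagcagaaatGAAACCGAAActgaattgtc

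ISG15 (chr1:1013377-1013406, plus strand): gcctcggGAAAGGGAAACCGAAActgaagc

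IFITM3 (chr11:320885-320914, minus strand): agGAAAAGGAAActgttgaGAAACCGAAAc

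BST2 (chr19:17405738-17405767, minus strand): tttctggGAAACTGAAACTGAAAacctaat

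IFIT1 (chr10:89392503-89392532, plus strand): ttagTTTCACTTTCcccTTTCGGTTTCcct

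Members with and without the core lay on both sides of Scr in miR-27a KO. Of 16 tested members with the core, 6 had both libraries above and 5 both below Scr, and of 15 tested members without it, 6 were above and 4 below. Over all genes tested 32.4% were above and 31.9% below, near the shares of both sets. A match of these letters is a description of the window and shows no binding.

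Antiviral effectors were the largest role, with 24 listed members, 14 of them tested. In miR-27a KO 1 rose, 1 fell, and the 14 tested had a median log2 fold change of -0.54, beside 0.01 for all genes tested. That median was -0.31 with GC content and length corrected and -0.32 without Scr replicate 1, beside 0.05 and 0.01 for all genes, and -0.60 without Scr replicate 2. Of these 14, 2 had both miR-27a KO libraries above Scr and 9 both below. Over all tested members 12 were above and 15 below, against 32.4% and 31.9% of all genes tested.

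MX1, a dynamin-like GTPase that traps viral nucleocapsids, rose in miR-27a KO. Its level was 3.34 and 3.38 CPM in the Scr libraries, 3.04 and 2.58 CPM with miR-23a KO, and 11.9 and 12.3 CPM with miR-27a KO. The miR-27a KO libraries lay far above the other 4, and miR-23a KO lay just below Scr. The log2 fold change was 1.84 (SE 0.21), or 3.59-fold, with adjusted p = 0.0111. Without miR-27a KO replicate 1 the log2 fold change of MX1 was 1.88 (adjusted p = 0.0524), without replicate 2 it was 1.83 (adjusted p = 0.0763), and over 12 alternatives the adjusted p ran from 1.06e-05 to 0.147. MX1 in miR-23a KO had a log2 fold change of -0.19 (SE 0.66) against Scr and -2.10 (SE 0.40) against miR-27a KO (adjusted p = 0.17).

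MX2, the paralog beside MX1 on chromosome 21, was not called. Its level was 51.4 and 48.4 CPM in the Scr libraries, 29.3 and 49 CPM with miR-23a KO, and 49.8 and 50.6 CPM with miR-27a KO. In miR-27a KO the libraries overlapped Scr. MX2 was outside the rule for named members and is given because it neighbours MX1.

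OAS1, which makes the short oligoadenylates that activate RNase L, fell in miR-27a KO. Its level was 25.8 and 32.2 CPM in the Scr libraries, 19.5 and 16 CPM with miR-23a KO, and 17.6 and 17.6 CPM with miR-27a KO. Both knockouts lay below both Scr libraries and overlapped each other. The log2 fold change was -0.73 (SE 0.16) in miR-27a KO with adjusted p = 0.0429, and -0.65 (SE 0.48) in miR-23a KO with adjusted p = 1. The OAS1 call held in 5 of 12 alternatives. Its log2 fold change was -0.60 (adjusted p = 0.0721) with GC content and length corrected, -0.72 (adjusted p = 0.299) without miR-27a KO replicate 1, -0.71 (adjusted p = 0.326) without miR-27a KO replicate 2, -0.87 without Scr replicate 1 and -0.55 without Scr replicate 2, and its adjusted p ranged from 0.000452 to 0.673.

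OAS3, a longer enzyme of the same family and a neighbour on chromosome 12, lay on the other side of Scr. It was outside the naming rule and was singled out after its values were seen. Its level was 35.9 and 45.6 CPM in the Scr libraries, 30.1 and 37.5 CPM with miR-23a KO, and 56.9 and 58 CPM with miR-27a KO. The miR-27a KO libraries were above all others, with a log2 fold change of 0.49 (SE 0.14) and adjusted p = 0.0758, which did not pass. OAS2, the third gene of that cluster, had 5 and 4 (Scr), 0 and 2 (miR-23a KO) and 1 and 1 (miR-27a KO) counts.

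Of the IFITM genes, whose proteins restrict virus entry at membranes, IFITM3 and IFITM2 were lower in miR-27a KO without passing the test, and IFITM1 overlapped Scr. IFITM3 was at 315 and 227 CPM in the Scr libraries, 437 and 185 CPM with miR-23a KO, and 181 and 168 CPM with miR-27a KO. The miR-27a KO libraries were below all others, and the log2 fold change was -0.64 (SE 0.17) with adjusted p = 0.0652. IFITM2 was at 78.2 and 47.6 CPM in the Scr libraries, 60.8 and 53 CPM with miR-23a KO, and 40.0 and 35.4 CPM with miR-27a KO. For miR-27a KO both values were again the lowest (log2 fold change -0.74, SE 0.25, adjusted p = 0.107). DESeq2 called both genes lower in miR-27a KO (adjusted p = 0.00473 for IFITM3 and 0.0251 for IFITM2), and both were also called by edgeR with a replicate block and without Scr replicate 2, at -0.85 and -1.05 in the latter. Without Scr replicate 1 the values were -0.37 and -0.33, and with GC content and length corrected they were -0.39 and -0.51, with no call. Over 12 alternatives the adjusted p ran up to 0.962 for IFITM3 and 0.738 for IFITM2. The IFITM genes lie within 13.1 kb of chromosome 11 and are close in sequence, and how shared reads were divided between them was not tested.

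BST2 and ISG15, both with the core in their promoters, were among the most abundant members. BST2 was at 167 and 136 CPM in the Scr libraries, 229 and 119 CPM with miR-23a KO, and 105 and 101 CPM with miR-27a KO. The miR-27a KO libraries were the lowest, with a log2 fold change of -0.56 (SE 0.12) and adjusted p = 0.0398, under 1.5-fold. The log2 fold change of BST2 was -0.31 (adjusted p = 0.0651) with GC content and length corrected, -0.58 (adjusted p = 0.223) without miR-27a KO replicate 1 and -0.52 (adjusted p = 0.308) without miR-27a KO replicate 2. Without Scr replicate 2 it was called lower at -0.70, and without Scr replicate 1 it was -0.40 and not called. ISG15, a ubiquitin-like modifier, was at 56.9 and 46.3 CPM in the Scr libraries, 109.9 and 31.1 CPM with miR-23a KO, and 34.1 and 38.4 CPM with miR-27a KO. Both libraries of miR-27a KO lay below Scr, with a log2 fold change of -0.51 (SE 0.14) and adjusted p = 0.0736 (-0.31 with GC content and length corrected), whereas its miR-23a KO libraries were the highest and the lowest of the 6.

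TRIM22, a ubiquitin ligase, was at 1.6 and 2.63 CPM in the Scr libraries, 0.456 and 1.61 CPM with miR-23a KO, and 0.969 and 1.51 CPM with miR-27a KO. Levels in miR-27a KO were below Scr (log2 fold change -0.78, SE 0.46, adjusted p = 0.303), and miR-23a KO overlapped Scr. The other tested effectors, IFITM1, ISG20, IFI6, IFI27 and IFI35, had log2 fold changes between -1.47 and -0.29 in miR-27a KO, and none passed the test.

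**Figure D5:**
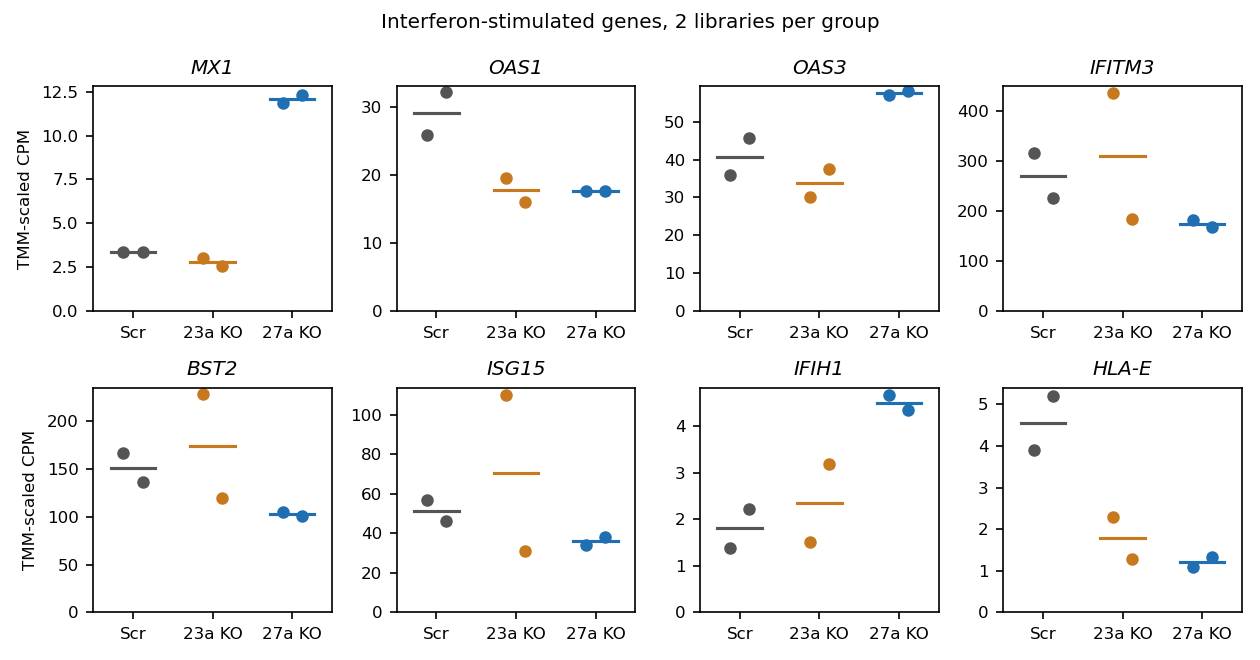
TMM-scaled CPM of 8 interferon-stimulated genes on linear axes from 0, with 1 point per library and a line at the mean of 2. MX1, OAS3 and IFIH1 have their highest values in miR-27a KO, and the 2 miR-23a KO points of IFITM3, BST2 and ISG15 lie far apart.

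Both cytosolic RNA sensors were tested and 0 were called by the main edgeR fit. IFIH1, which detects long double-stranded RNA, was at 1.39 and 2.23 CPM in the Scr libraries, 1.52 and 3.17 CPM with miR-23a KO, and 4.66 and 4.33 CPM with miR-27a KO. The miR-27a KO libraries were above all others, with a log2 fold change of 1.31 (SE 0.35) and adjusted p = 0.0694. The edgeR fit called IFIH1 higher in miR-27a KO without Scr replicate 1 (log2 fold change 1.01, adjusted p = 0.0324) and without Scr replicate 2 (1.69, adjusted p = 0.00472), but not without miR-27a KO replicate 1 (adjusted p = 0.409) or miR-27a KO replicate 2 (adjusted p = 0.372). DDX58, which encodes RIG-I, was at 5.42 and 3.85 CPM in the Scr libraries, 4.49 and 8.39 CPM with miR-23a KO, and 3.27 and 5.78 CPM with miR-27a KO. Its 3 groups overlapped.

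Of the 6 modifiers of the ISG15 and ADP-ribosylation systems, 4 were tested against Scr and 0 were called. USP18, which removes ISG15 and dampens the type I receptor, was at 26.1 and 25.3 CPM in the Scr libraries, 28.1 and 23.3 CPM with miR-23a KO, and 20.5 and 20.4 CPM with miR-27a KO. In miR-27a KO both libraries lay below all others, with a log2 fold change of -0.34 (SE 0.13) and adjusted p = 0.14. DTX3L, a ubiquitin ligase that acts with PARP9, was at 9.38 and 15 CPM in the Scr libraries, 7.76 and 16.2 CPM with miR-23a KO, and 16.2 and 16 CPM with miR-27a KO. Both values of miR-27a KO were above Scr (log2 fold change 0.40, SE 0.25, adjusted p = 0.335), within the spread of miR-23a KO.

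PARP9, the partner of DTX3L, was at 8.48 and 12 CPM in the Scr libraries, 7.45 and 13.5 CPM with miR-23a KO, and 9.39 and 9.81 CPM with miR-27a KO. PARP14, an ADP-ribosyltransferase, was at 6.88 and 11.6 CPM in the Scr libraries, 3.58 and 18.4 CPM with miR-23a KO, and 9.39 and 10.7 CPM with miR-27a KO. For both genes the miR-27a KO libraries overlapped Scr and the miR-23a KO libraries were the lowest and the highest of the 6. PARP9, DTX3L and PARP14 lie within 203 kb of chromosome 3.

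Antigen presentation had 7 members, 6 of them tested, with 0 higher and 1 lower in miR-27a KO. HLA-E, a non-classical class I molecule recognised by natural killer cells, fell. Its level was 3.89 and 5.2 CPM in the Scr libraries, 2.28 and 1.29 CPM with miR-23a KO, and 1.09 and 1.32 CPM with miR-27a KO. Both knockouts were below both Scr libraries and overlapped each other. The log2 fold change was -1.91 (SE 0.35) in miR-27a KO, 3.76-fold lower, with adjusted p = 0.0293, and -1.30 (SE 0.70) in miR-23a KO with adjusted p = 1. These rest on 56 and 77 (Scr), 30 and 24 (miR-23a KO) and 18 and 22 (miR-27a KO) counts. Without miR-27a KO replicate 1 the log2 fold change of HLA-E was -1.77 (adjusted p = 0.221) and without replicate 2 it was -2.04 (adjusted p = 0.187), and over 12 alternatives the adjusted p ran from 0.00254 to 0.304. Class I HLA genes are polymorphic and alike in sequence, and the effect of the reference alleles on these counts was not tested.

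B2M, the shared light chain, was at 237 and 224 CPM in the Scr libraries, 236 and 183 CPM with miR-23a KO, and 248 and 246 CPM with miR-27a KO. In both miR-27a KO libraries levels were the highest of the 6 by a small margin, and miR-23a KO overlapped Scr. The transporter TAP1, which carries peptides into the endoplasmic reticulum, was at 38.2 and 38.2 CPM in the Scr libraries, 63.7 and 24.8 CPM with miR-23a KO, and 37.4 and 39 CPM with miR-27a KO. Levels in miR-27a KO overlapped Scr.

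The immunoproteasome subunits encoded on either side of TAP1 on chromosome 6 were both higher in miR-27a KO without passing the test. PSMB8 was at 21.8 and 24 CPM in the Scr libraries, 31.1 and 13.3 CPM with miR-23a KO, and 27.1 and 27.9 CPM with miR-27a KO. Both miR-27a KO values were above Scr (log2 fold change 0.26, SE 0.13, adjusted p = 0.224). PSMB9 was at 0.834 and 1.49 CPM in the Scr libraries, 3.04 and 0.646 CPM with miR-23a KO, and 2.6 and 2.41 CPM with miR-27a KO. Both libraries of miR-27a KO were above Scr, with a log2 fold change of 1.10 (SE 0.42) and adjusted p = 0.147, and its miR-23a KO libraries spanned the Scr values. HLA-B, the last of the 7 that was tested, had 30 and 19 (Scr), 31 and 18 (miR-23a KO) and 32 and 40 (miR-27a KO) counts.

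Seed matches were read from the 3′ untranslated region of 1 GENCODE 29 transcript for each of the 52 members. The reverse complement of seed bases 2 to 8, AATGTGA for miR-23a-3p, was in 10 members (19.2%) and in 17.5% of 15791 genes. ACTGTGA for miR-27a-3p was in 3 members (5.77%), HLA-B, IFNAR1 and SAMD9L, and in 15% of all genes. The median length searched was 616 bases for members and 974 for all genes, and these shares are not corrected for length. IFNLR1, MX1 and OAS1 held neither, and HLA-E held 2 matches to miR-23a-3p. The matches in the called gene HLA-E and in the receptor IFNAR1 are shown with the matched bases in capitals.

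HLA-E, match to miR-23a-3p (chr6:30492903-30492909, plus strand): cctgttagcacAATGTGAggaggtag

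HLA-E, match to miR-23a-3p (chr6:30493754-30493760, plus strand): tgctaagtggaAATGTGAggtgcagc

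IFNAR1, match to miR-27a-3p (chr21:33359134-33359140, plus strand): atgaaatctaaACTGTGAacctgagg

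A match is a description of the transcript and shows no binding. HLA-E, with matches to miR-23a-3p alone of the 2 seeds searched, was lower in both knockouts, and its difference in miR-23a KO did not pass the test. As given above, each knockout also changed other miRNAs of the cluster in the authors' qPCR.

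Other genes of the pathway numbered 59, of which 49 had a row and 38 were tested in miR-27a KO. Of these, 3 were called higher and 1 lower in miR-27a KO, beside the 3.52% and 6.74% of all genes given above. The calls of GBP1 and SOCS3 are not read as changes, for the reason given with each. NFKB1, a transcription factor of inflammatory signalling, was at 46 and 48.9 CPM in the Scr libraries, 26.6 and 53.9 CPM with miR-23a KO, and 81.6 and 82.1 CPM with miR-27a KO. Its log2 fold change was 0.78 (SE 0.09) with adjusted p = 0.0111, both miR-27a KO libraries being above all others. IKBKE, a kinase upstream of IRF3, was at 11.1 and 10.4 CPM in the Scr libraries, 18.9 and 10.5 CPM with miR-23a KO, and 17.7 and 17.3 CPM with miR-27a KO. In miR-27a KO both libraries were above Scr, with a log2 fold change of 0.70 (SE 0.16) and adjusted p = 0.0444. GBP1, an interferon-induced GTPase, had 2 and 1 (Scr), 0 and 5 (miR-23a KO) and 17 and 14 (miR-27a KO) counts. It passed the filter on low counts only through the miR-27a KO libraries, where it is high, so its call is not read as a rise.

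SOCS3, an inhibitor of JAK signalling, was called lower in miR-27a KO. Its level was 10.4 and 2.7 CPM in the Scr libraries, 0.228 and 0.915 CPM with miR-23a KO, and 0.182 and 0.361 CPM with miR-27a KO. The Scr libraries were themselves far apart, and both knockouts lay below them. The log2 fold change was -4.55 (SE 0.88) in miR-27a KO and -3.36 (SE 1.01) in miR-23a KO, where it was not called. With 3 and 6 counts in miR-27a KO, SOCS3 passed the filter there only through the Scr libraries, so its call is not read as a fall.

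Leukocyte markers were followed because leukocytes carry many of the same genes. Of 10 listed, 8 had a row. Their summed level was 848 and 824 CPM for Scr, 663 and 395 CPM for miR-23a KO, and 2055 and 2096 CPM for miR-27a KO. LYZ and CD74 rose in miR-27a KO, 3.88-fold and 1.55-fold (adjusted p = 0.00204 and 0.0248). LYZ was the most abundant of them in Scr, and PTPRC, which defines leukocytes, had at most 2 counts in any library. The part of leukocyte genes in the results for the members was not tested. Summed levels of the other marker lists were between 3.35 and 6.83 CPM for endothelial cells, between 5.12 and 29.8 CPM for fibroblasts or stellate cells, at most 0.139 CPM for plasmacytoid dendritic cells, the main interferon producers of blood, and between 29.6 and 96.1 CPM for kidney epithelium. PDGFRB of the fibroblast list and CDH16 of the kidney list fell in miR-27a KO, 4.34-fold and 7.68-fold (adjusted p = 0.0166 and 0.00399). PAX8, also of the kidney list, overlapped Scr there, with a log2 fold change of -0.06 (adjusted p = 0.825 by edgeR).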

How the data were processed

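RNA of 6 HepG2 libraries was sequenced, and the authors deposited 1 table of 20026 genes. Its headers name FPKM, but the values behave as estimated counts with fractions, and as such they were rounded and analysed as deposited by the authors. Totals were 14405302 to 16515321 counts per library, which limits what can be seen in members near 0. Each pair of groups was fitted alone in edgeR 4.0.16 (R 4.3.3; filterByExpr, TMM, quasi-likelihood F test, Benjamini-Hochberg over all genes tested), and a gene was called at an adjusted p under 0.05 and over 1.5-fold. Alternatives included DESeq2 1.42.0 and limma 3.58.1. Transcript length, GC content and untranslated regions came from GENCODE 29, which matched 89.5% of the genes, and promoters and miRNAs from RefSeq (GRCh38.p14). The pipeline was tested on simulated data, with changes planted only in genes of higher counts. The simulation held no GC-linked difference between replicates, so it does not bear on members near 0 or on the unlike miR-23a KO libraries. Named members were those called in a knockout, the receptors, 8 listed kinases and factors, in every other role the 4 highest per kb and the 3 largest changes in miR-27a KO without overlap with Scr, and those on opposite sides of Scr in the knockouts by over 1.5-fold. Of the other pathway genes, those called in miR-27a KO were named. The members and lists were chosen with earlier results of these data known.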

Additional observations from a re-analysis of the deposited data

Results flagged for a closer look

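For 4 members both miR-27a KO libraries lay above and both miR-23a KO libraries below both Scr libraries, a pattern held by 4.37% of 13557 genes, and the opposite pattern was held by 0 members and 1.42% of genes. The difference between the knockouts was tested in edgeR. These 4 were picked by that pattern in the same libraries, so the direction of each difference was fixed by the choice. For IFNLR1 the log2 fold change of miR-23a KO against miR-27a KO was -5.23 (adjusted p = 0.0802). For MX1 it was -2.10 (adjusted p = 0.17), for IFNGR2 -0.96 (adjusted p = 0.45) and for IL10RB -0.60 (adjusted p = 0.736). None passed the threshold in the main fit. Among the alternatives, fits without 1 library took the spread only from the group that kept both libraries. With the 1.5-fold limit also applied, IFNLR1 passed in 10 of 12 alternatives and MX1 in 5. IFNGR2 passed in 2 (without miR-23a KO replicate 1 and without miR-23a KO replicate 2). IL10RB passed in 1 (without miR-23a KO replicate 1), and with no limit on the fold in 2. Groups of 2 libraries are too small for a test of single outlying libraries.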

How the results depend on the processing

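The number of members called depended on the fit. For miR-27a KO against Scr, where 2 rose and 2 fell, 1 fit of all 6 libraries gave 0 and 0 (0.0212% and 0.431% of all genes). The stricter adjusted p under 0.001 also gave 0 and 0 (0.0145% of all genes in each direction). The number that fell was 1 with no filter (3% of all genes), 1 with GC content and length corrected (5.76%), 4 with DESeq2 (7.66%) and 4 with no limit on the fold (9.12%). With a replicate block, which uses only a shared replicate number as the labels name no pairing, it was 4 (7.73%), and with GC content and length corrected with replicate block it was 1 (6.29%). Leaving out 1 library gave 1 to 6 that rose and 0 to 10 that fell, while the share of all genes called ran from 0.574% to 13.4% upward and from 1.72% to 12.7% downward. For miR-23a KO against Scr, the number lower was 1 with DESeq2 (0.428% of all genes) and 1 with the replicate block (0.45%), and leaving out 1 library gave 0 to 4 higher and 0 to 1 lower (0% to 12% and 0.0279% to 6.57% of all genes). For miR-23a KO against miR-27a KO, the number lower was 1 with all 6 libraries (0.77% of all genes), 1 with limma (0.159%), 1 with the replicate block (1.37%), 2 with DESeq2 (1.58%), 2 with GC content and length corrected (1.06%) and 2 with that correction and the replicate block (4.07%), and leaving out 1 library gave 0 to 10 higher and 1 to 11 lower (0.173% to 25.2% and 0.325% to 26.2% of all genes). The cause was not tested. Fits without 1 library had fewer samples, and they took the spread only from the group that kept both libraries. Of 372 values for 31 named members in each comparison, 19 changed sign in miR-27a KO against Scr, 44 in miR-23a KO against Scr and 24 between the knockouts, and 2 of these involved a call: between the knockouts PARP14 ran from -1.48 (without miR-23a KO replicate 2) to 0.87 and TAP1 from -0.63 (without miR-23a KO replicate 1) to 0.74 when 1 library was left out, where the main values were 0.14 and 0.21. IFNLR1, MX1, HLA-E and OAS1 kept their sign in miR-27a KO in all 12 alternatives. With 2 libraries per group from colonies grown from single cells, differences between colonies and effects of the edits cannot be told apart.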
